A study of Mus musculus with 2 samples.

Results

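Collagen chain genes were examined in skin wounds of WT and PU.1-/- mouse pups. A gene was taken as a collagen chain when its symbol was Col, a type number, the letter a and a chain number, as in Col1a1, and 44 of the 24346 symbols in the tables met this rule. The rule itself uses the name alone and no measured value. The 44 genes lie on 15 chromosomes and fall into 9 structural classes, of which the fibrillar class with 11 genes and the FACIT class (fibril-associated collagens with interrupted helices) with 9 genes were the largest. Col21a1, a further FACIT gene, had no row.

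Both groups were C57BL/6J pups injured at 1 day of age by a full-thickness cut of 1 cm in the dorsal skin, and the wound tissue was taken 24 h later. The methods describe incisions, while the design text speaks of excision. The groups were the WT genotype and PU.1_KO, written here as PU.1-/-, and the labels name no further agent for either. PU.1, encoded by Spi1, is a DNA-binding factor that blood cells need to become myeloid cells, and pups without it have no macrophages, neutrophils, mast cells or T cells, so the model removes several leukocyte types together. Each genotype was sequenced as 1 library, and the sources used here give neither the number of pups nor their sex, so no p-value was possible and every difference below is a difference between 2 libraries.

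Collagens are the main proteins of the extracellular matrix, built from chains that wind around each other into a rope-like helix. The helix needs glycine, the smallest amino acid, at a fixed step along the chain. Fibrillar collagens give the dermis its strength, type IV forms the sheet of basement membranes, type VII and type XVII fasten the epidermis to the dermis, and fibroblasts, endothelium, keratinocytes, muscle and nerve sheath each make their own set. In skin repair, provisional matrix is replaced over days to weeks by new collagen, much of it from fibroblasts.

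The repeat that defines these chains can be read in their exons. For the genes on which the results turn, a coding exon of 54 bases that lies in the glycine repeat is given as coding sequence. It is the first such exon that opens with a glycine codon or, for Col17a1, which has none, the first with any start. Sequences run 5′ to 3′, from the mm10 assembly with GENCODE exons, and capitals mark the glycine codons. They are the exons of the 3 main fibrillar chains, the main basement membrane chain, the anchoring fibril chain, the hemidesmosome chain and the chain with the largest ratio among those above 1 FPKM.
Col1a1, coding exon 8, chr11:94939904-94939957, plus strand: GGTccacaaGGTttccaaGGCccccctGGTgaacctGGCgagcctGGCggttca
Col1a2, coding exon 8, chr6:4515481-4515534, plus strand: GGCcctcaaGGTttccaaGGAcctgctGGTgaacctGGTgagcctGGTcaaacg
Col3a1, coding exon 6, chr1:45325360-45325413, plus strand: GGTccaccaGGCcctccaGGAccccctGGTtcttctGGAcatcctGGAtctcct
Col4a1, coding exon 7, chr8:11245211-11245264, minus strand: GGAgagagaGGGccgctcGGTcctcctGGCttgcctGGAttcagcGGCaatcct
Col7a1, coding exon 48, chr9:108967172-108967225, plus strand: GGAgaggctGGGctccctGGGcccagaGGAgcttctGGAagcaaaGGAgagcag
Col17a1, coding exon 25, chr19:47663803-47663856, minus strand: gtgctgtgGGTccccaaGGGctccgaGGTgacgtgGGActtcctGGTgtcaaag
Col13a1, coding exon 24, chr10:61869524-61869577, minus strand: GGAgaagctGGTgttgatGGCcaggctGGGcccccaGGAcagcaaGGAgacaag
In 6 of these 7 exons, which were chosen to open with a glycine codon, these codons recur 6 times at a step of 9 bases. The Col17a1 exon starts inside a codon and holds 5.

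The fibrillar class stood apart by the length of this repeat, while the other classes overlapped. A run was counted where 5 or more triplets of codons in a row began with a glycine codon (GGN). Among the fibrillar genes the longest unbroken run had 216 to 344 triplets, with 344 in Col3a1, 339 in Col1a2 and 338 in Col1a1. The longest run had 39 to 66 triplets in type IV genes, 32 to 113 in FACIT genes and 40 to 56 in transmembrane genes, whose helices are broken by interruptions. Of the 1155 coding exons that lay wholly within runs, the fibrillar genes held 510, and 59.2% of these were exactly 54 bases long and 99.6% a multiple of 9. The FACIT genes followed with 51.2% of 207 exons at 54 bases, whereas only 8.16% of 147 type IV exons had this length and 72.8% were a multiple of 9. Col7a1 had 118 coding exons, the most of all members, and 20 runs, of which the longest had 75 triplets. The 3 short chain genes had no exon wholly within a run, and each had only 2 coding exons.

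**Figure D1:**
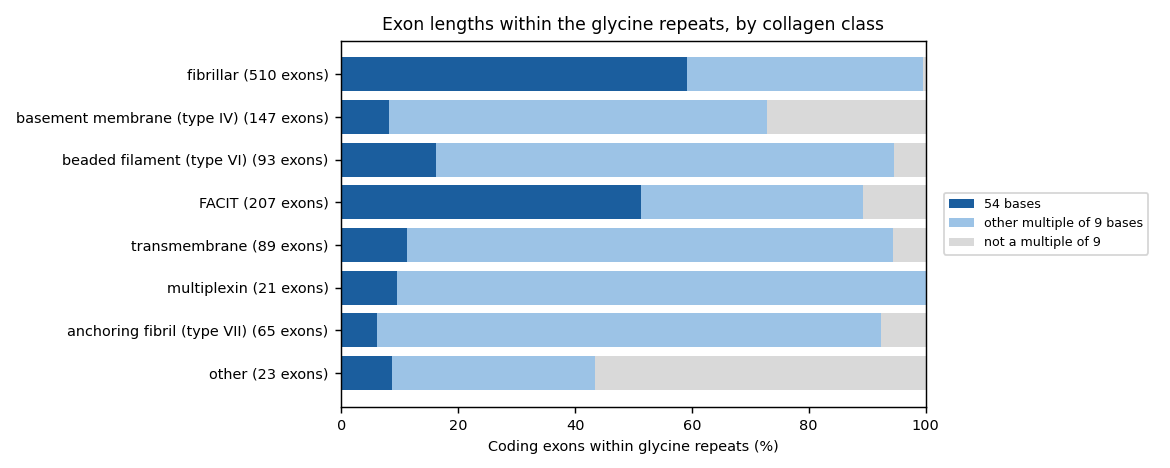
Length of the coding exons that lie wholly within glycine repeats, by collagen class, as a percentage of such exons on the horizontal axis; dark bars are exons of 54 bases, light bars other multiples of 9 bases and grey bars other lengths. The 54-base exon makes up 59.2% of fibrillar and 51.2% of FACIT exons and 6.15% to 16.1% in the other 6 classes drawn.

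Levels are given in FPKM, the fragments of a gene per kilobase of transcript and per 1e+06 mapped fragments, so that levels can be compared between genes. The estimated depth was 1.38e+07 fragments in WT tissue and 1.59e+07 in PU.1-/- tissue. From it, the number of reads behind each value and a 95% counting interval of the ratio were estimated, and these intervals cover counting error only, not the spread between animals. A gene was called higher or lower when the libraries differed by a ratio of at least 2 after values below 0.1 FPKM were raised to 0.1. Spi1 itself was at 35.4 FPKM in WT tissue and 1.45 FPKM in PU.1-/- tissue. All 10 macrophage markers were called lower, as were 7 of 9 neutrophil markers and 9 of 10 mast cell markers. The 4 Y-linked genes examined were at 2.16 to 38.5 FPKM in WT tissue and at 0 in PU.1-/- tissue, and Xist, which silences an X chromosome in female cells, was at 0 and 9.48 FPKM, so that genotype and sex cannot be told apart in any value below. In these bulk samples fewer cells of a type and less RNA per cell cannot be told apart either.

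Collagen mRNA summed to close values in both wounds. In what follows the WT value stands first wherever a pair of values is given, and fibroblast scaling means that the PU.1-/- library was scaled so that the fibroblast markers had a median ratio of 1. The FPKM values of the 44 genes summed to 3282 in WT tissue and 3565 in PU.1-/- tissue, a ratio of 1.09, which was 0.899 when the libraries were scaled to equal fibroblast markers. Collagens made up 0.463% and 0.519% of the summed FPKM of all genes. Of the members, 3 (6.82%) were called higher, against 2.32% of all genes, and 1 (2.27%) was called lower, against 4.34% of all genes. All 4 called genes were low, at most 1.88 FPKM in the higher library, and they are described with their classes. The median log2 ratio of the 44 was 0.14, against 0.00 over all genes, and it was -0.08 when scaled to fibroblast markers. In the deposited values 32 members were higher in the PU.1-/- library and 12 lower. After the floor 31 ratios lay above 1 and 10 below, but under that scaling, also after the floor, 17 lay above 1 and 24 below.

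The fibroblast markers bear on these directions. The 10 genes of that list summed to 1583 FPKM in WT tissue and 1937 in PU.1-/- tissue, with a median log2 ratio of 0.27, a range of -0.91 to 0.54, and none at 0 in either library. Dcn, which encodes the proteoglycan decorin, was at 690 and 959 FPKM. Collagen ratios between 1 and the median ratio of this list, 1.21, change direction when the list is the reference, among them those of Col1a1 and Col3a1, and the part of fibroblast content in them was not tested.

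**Figure D2:**
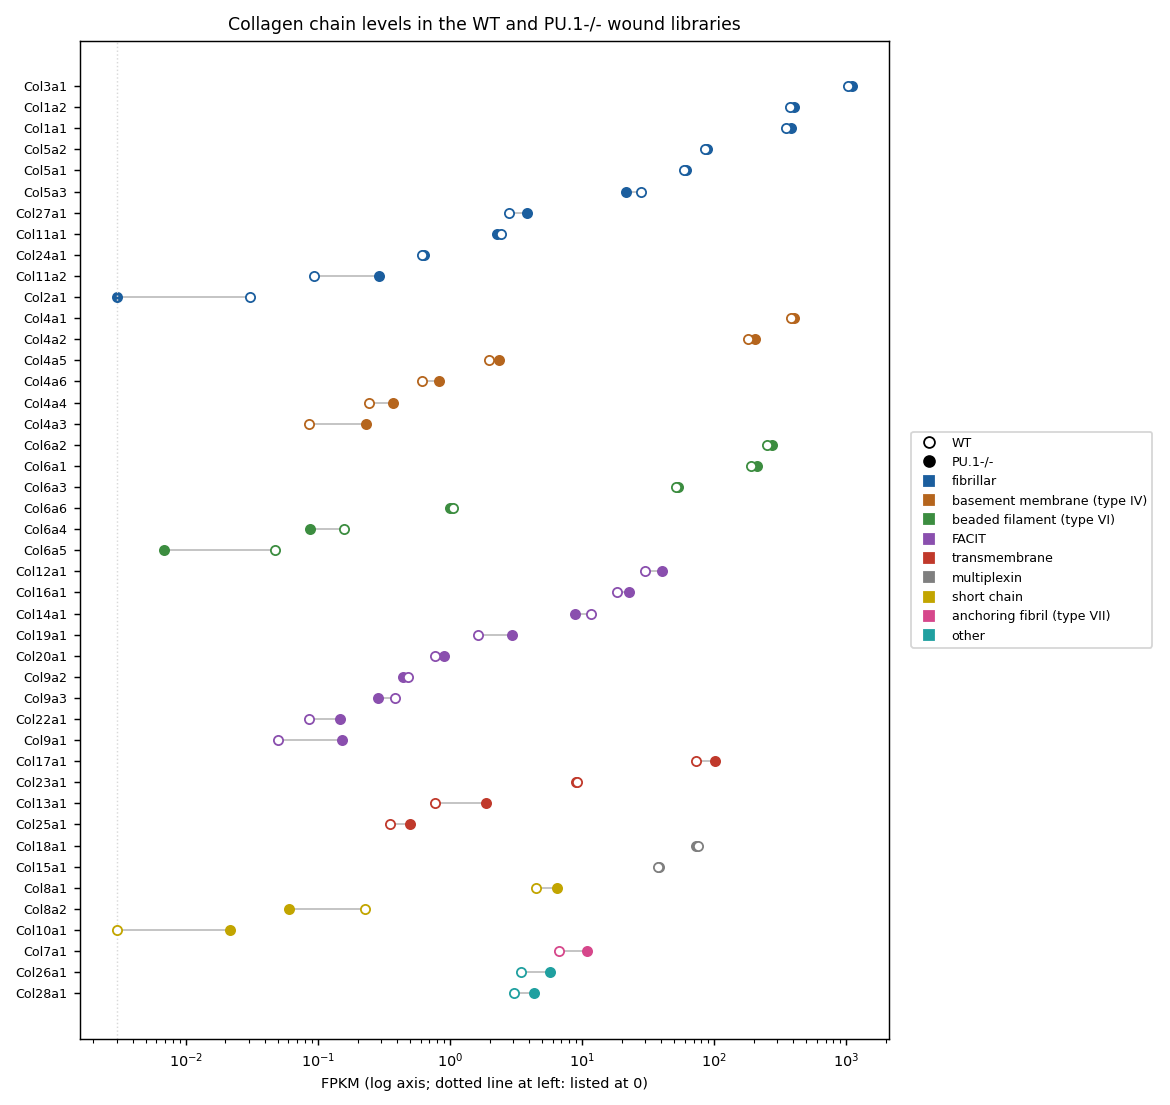
FPKM of the 44 collagen chain genes in the WT library (open circles) and the PU.1-/- library (filled circles) on a log axis, ordered by class and WT level, with values listed at 0 drawn on the dotted line. The pairs of circles of genes above 10 FPKM lie close together, and the wide gaps are those of genes near or below 1 FPKM.

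Abundant collagen genes lay within 1.5-fold between the libraries, as most genes of that level did. The 16 members of at least 10 FPKM in both libraries all differed by less than 1.5-fold, with a median log2 ratio of 0.11 and quartiles of 0.05 and 0.16. Over all 6538 genes at that level the median was -0.01, the quartiles were -0.14 and 0.14, and 94.8% were within 1.5-fold. At the lower threshold of 1.5-fold, 8 of the 44 (18.2%) were higher and 2 (4.55%) lower, beside 5.79% and 7.67% of all genes. Of these 8, the intervals of Col4a4 and Col9a1 held 1, and under fibroblast scaling only Col11a2, Col13a1 and Col4a3 stayed past 1.5-fold. Genes below the floor in both libraries cannot be called at either threshold. Ratios lay above and below 1 in 31 and 10 of the 44, against 7994 and 8304 of all 24346 genes.

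Fibrillar chains led the collagen mRNA of both wounds. Their summed level was 59.2% of all collagen FPKM in WT tissue and 58.4% in PU.1-/- tissue. Col3a1 alone, the single chain of type III collagen of young and healing dermis, made up 31.7% and 31.1%.

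Col3a1, on chromosome 1 from 45311538 to 45349706, was at 1042 FPKM in WT tissue and 1110.2 FPKM in PU.1-/- tissue, a ratio of 1.07 (95% counting interval 1.06 to 1.08). Col1a1, the alpha-1 chain of type I collagen, on chromosome 11 from 94936224 to 94953042, was at 350.5 and 385.0 FPKM, a ratio of 1.10 (1.08 to 1.12). Col1a2, the partner chain in type I collagen, on chromosome 6 from 4505618 to 4541543, was at 373 and 406 FPKM, a ratio of 1.09 (1.07 to 1.10). Scaled to fibroblast markers, the 3 ratios lay between 0.883 and 0.910, the opposite direction. The intervals are narrow because an estimated 26547 to 94499 reads stand behind each value, and they do not measure how 2 pups of 1 genotype would differ.

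The proportions of the main chains were close in both wounds. Type I collagen takes 2 alpha-1 chains for each alpha-2 chain, while the ratio of Col1a1 to Col1a2 mRNA levels was 0.939 in WT tissue and 0.949 in PU.1-/- tissue. The Col1a1 to Col3a1 ratio, often used to describe the maturity of repair tissue, was 0.336 and 0.347. These within-library ratios do not depend on how the libraries are scaled.

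The type V chains, which start fibrils and limit their width, had ratios on both sides of 1. Col5a2 was at 86.2 and 89.2 FPKM and Col5a1 at 59.2 and 61.8 FPKM, with log2 ratios of 0.05 and 0.06 that were negative under fibroblast scaling, and the ratio of Col5a1 to Col5a2 was 0.687 and 0.693. Col5a3, the less common chain of this type, was lower, at 28.0 FPKM in WT tissue and 21.6 FPKM in PU.1-/- tissue, a ratio of 0.771 (0.726 to 0.819). Scaled to fibroblast markers the ratio was 0.638, so its direction did not depend on the scaling.

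The rest of the fibrillar class was scarce. Col27a1, a fibrillar chain best known from cartilage, was at 2.79 and 3.81 FPKM, a ratio of 1.37 (1.17 to 1.59). Col11a1, the type XI chain that starts fibrils in cartilage, was at 2.43 and 2.29 FPKM, and its interval of 0.789 to 1.12 held 1. Col24a1 was at 0.613 and 0.642 FPKM. Col11a2 was at 0.0934 and 0.290 FPKM and was called higher, with a ratio of 2.90 after the floor, but few reads stood behind it. The smallest read numbers that give both values are 7 and 25. From an estimated 8 and 27 reads, the interval of the deposited ratio ran from 1.30 to 7.48. Col2a1, the main collagen of cartilage, was at 0.0305 and 0 FPKM. Cartilage markers were near 0 in both libraries, where the 7 genes summed to 0.578 and 0.856 FPKM, 4 of them were at 0 in WT tissue and 2 in PU.1-/- tissue, and the proteoglycan gene Acan was at 0.352 and 0.631 FPKM.

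Type IV chains, the network of basement membranes under the epidermis and around vessels, muscle fibres and nerves, were next in abundance, with 17.2% of collagen FPKM in WT tissue and 17.3% in PU.1-/- tissue. Their 6 genes form 3 pairs that face away from each other. Col4a1 and Col4a2 on chromosome 8 overlap at their starts by 85 bases and Col4a4 and Col4a3 on chromosome 1 by 114 bases, while Col4a6 and Col4a5 on chromosome X lie 1274 bases apart, by RefSeq gene bounds on GRCm38.

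Col4a1 was at 380.4 FPKM in WT tissue and 406 FPKM in PU.1-/- tissue, a ratio of 1.07 (1.05 to 1.08). Col4a2 was at 181 and 205 FPKM, a ratio of 1.13 (1.11 to 1.16). Both ratios lay below 1 under fibroblast scaling, at 0.885 and 0.939. The helix of this network takes 2 Col4a1 chains for each Col4a2 chain, and their mRNA ratio was 2.10 in WT tissue and 1.98 in PU.1-/- tissue. Endothelial markers, whose cells lie on this network, had a median log2 ratio of 0.11, with 8 of 10 above 0, a range of -0.25 to 0.37, none at 0, and summed levels of 244 and 265 FPKM, and that median too lay below 0 under fibroblast scaling.

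The minor chains of type IV were all higher in the deposited values of the PU.1-/- library, though the ratio of Col4a5 lay just below 1 under fibroblast scaling, and few reads stood behind them. Col4a5 was at 1.97 and 2.36 FPKM and Col4a6, which pairs with it in the basement membrane of skin, at 0.615 and 0.827 FPKM. Their intervals, 0.982 to 1.47 and 0.947 to 1.92, held 1. Both genes are X-linked, and the libraries differ in sex. Col4a4 was at 0.246 and 0.371 FPKM, with an interval of 0.956 to 2.34. Col4a3 was at 0.0856 and 0.231 FPKM and was called higher, with a ratio of 2.31 after the floor. Its deposited ratio was 2.70, with smallest read numbers of 10 and 31 and an interval of 1.29 to 6.17. The call of Col4a3 was lost under fibroblast scaling and with a pseudocount of 0.1 FPKM in place of the floor. Within the pairs, the log2 ratios differed by 0.09 for Col4a1 and Col4a2, 0.17 for Col4a6 and Col4a5 and 0.62 for Col4a4 and Col4a3, in order of falling read number.

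Type VI chains, which form beaded filaments around cells and next to basement membranes, took 15.1% and 15.2% of collagen FPKM. Col6a2 was at 251 and 276 FPKM, Col6a1 at 190.0 and 211 FPKM and Col6a3 at 51.6 and 53.3 FPKM, and these 3 chains assemble into 1 filament. Their ratios were 1.10, 1.11 and 1.03, and each lay below 1 under fibroblast scaling, at 0.910, 0.918 and 0.855. Col6a1 over Col6a2 was 0.756 and 0.763, and Col6a3 over Col6a1 was 0.272 and 0.253. Col6a1 and Col6a2 lie 85161 bases apart on chromosome 10 on the same strand. The alternative chains Col6a6, Col6a5 and Col6a4 lie in a row on chromosome 9. Col6a6 was at 1.065 and 1.0002 FPKM, Col6a4 at 0.159 and 0.0866 FPKM, and Col6a5 at 0.0475 and 0.00689 FPKM, and all 3 intervals held 1.

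A pair of chains fasten the epidermis to the dermis, and neither was called. Col7a1, which alone forms the anchoring fibrils under the epidermal basement membrane, on chromosome 9 from 108953586 to 108984875, was at 6.73 FPKM in WT tissue and 10.9 FPKM in PU.1-/- tissue, a ratio of 1.62 (1.49 to 1.76). Col17a1, the transmembrane collagen of the hemidesmosome by which basal keratinocytes hold on, on chromosome 19 from 47646341 to 47692042, was at 73.3 and 101 FPKM, a ratio of 1.38 (1.33 to 1.43). Both ratios stayed above 1 under all 3 other scalings, with 1.34 for Col7a1 and 1.14 for Col17a1 at the lowest. The keratinocyte markers were examined beside them. All 10 were higher in the deposited values of the PU.1-/- library, none called, with a median log2 ratio of 0.20, a range of 0.07 to 0.61, and summed levels of 10525 and 12143 FPKM, but that median lay below 0 under fibroblast scaling. On the log2 scale the ratios of Col7a1 and Col17a1 were 0.69 and 0.46. Among markers of the basal layer, where both collagens are made, the keratins Krt5, Krt14 and Krt15 had 0.07, 0.16 and 0.61. Trp63, a transcription factor of basal cells, had 0.28, and Itgb4, also of the list, had 0.18. The part of keratinocyte content in these ratios was not tested.

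**Figure D3:**
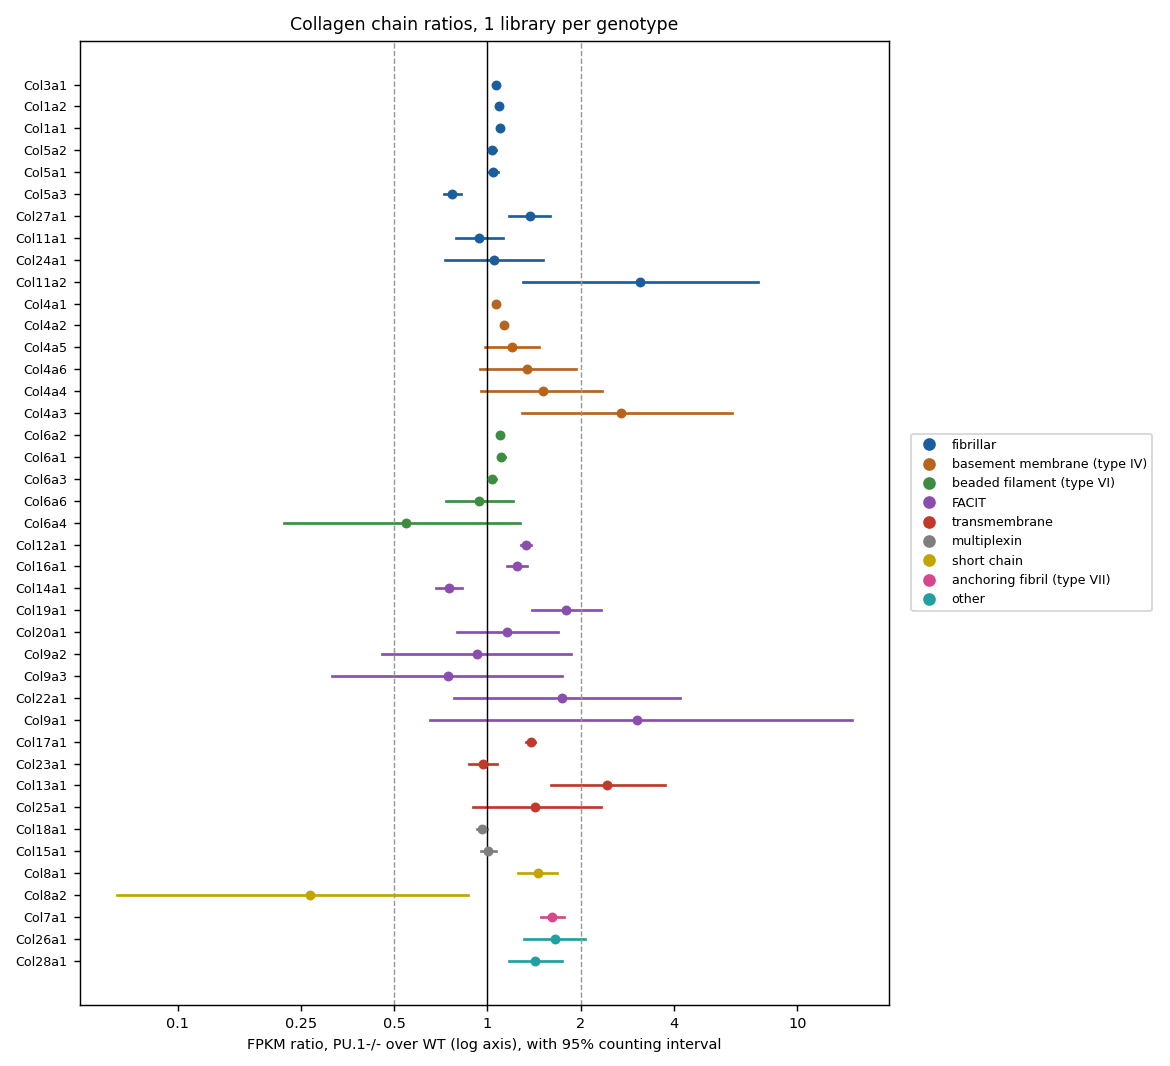
FPKM ratio of the PU.1-/- library over the WT library on a log axis for the 41 members above 0.1 FPKM in 1 or both libraries, with 95% counting intervals as bars, the ratio of 1 as a solid line and 2-fold differences as dashed lines. Abundant chains have short bars near 1, Col7a1 and Col17a1 lie to the right at 1.62 and 1.38, Col5a3 and Col14a1 lie to the left at 0.771 and 0.753, and the bars of all 4 called genes cross a 2-fold line. Ratios are drawn from deposited values without the floor, and fibroblast scaling would move them to the left by 0.27 on the log2 scale.

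The other transmembrane collagens were less abundant than Col17a1. Col13a1, a collagen of cell contacts that also sits at the junction of nerve and muscle, on chromosome 10 from 61838234 to 61979206, was at 0.777 FPKM in WT tissue and 1.88 FPKM in PU.1-/- tissue. Its ratio of 2.43 was the only call among the 28 members that reached 1 FPKM in 1 or both libraries. None of the 27 members of at least 1 FPKM in both libraries was called. Over all genes at that level, 202 of 12443 were called lower and 143 higher. An estimated 32 and 89 reads stood behind the Col13a1 ratio, the interval ran from 1.60 to 3.75, and under the 3 other scalings the ratio was 2.01 to 2.50. Col23a1 was at 9.23 and 8.95 FPKM, with an interval of 0.874 to 1.08. Col25a1, which muscle makes while motor nerves reach it, was at 0.349 and 0.495 FPKM, with an interval of 0.899 to 2.32.

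Skeletal muscle markers were higher beside Col13a1. All 10 were higher in the PU.1-/- library, 3 of them called, with a median log2 ratio of 0.78, a range of 0.64 to 1.13, none at 0, and summed levels of 8856 and 15069 FPKM. Among 4 myogenic progenitor genes 2 were called higher, and Myog, a regulator of muscle differentiation, was at 22.1 and 66.6 FPKM. The panniculus muscle underlies mouse dorsal skin, and how much of it was taken with each wound cannot be read from these libraries. The part of muscle content in the Col13a1 ratio was not tested.

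FACIT chains sit on the surface of fibrils and link them to other matrix, and their ratios lay on both sides of 1. Col12a1, found along dermal and tendon fibrils, was at 30.1 FPKM in WT tissue and 40.2 FPKM in PU.1-/- tissue, a ratio of 1.34 (1.29 to 1.39). Col16a1, found near the basement membrane of skin, was at 18.4 and 22.9 FPKM, a ratio of 1.25 (1.16 to 1.34). Col14a1, which regulates fibril width in skin and tendon, was lower, at 11.7 and 8.82 FPKM, a ratio of 0.753 (0.682 to 0.830). Under fibroblast scaling the 3 ratios were 1.11, 1.03 and 0.624, so that Col12a1 and Col14a1, close relatives with 5 short glycine runs each and the same longest run of 32 triplets, lay on opposite sides of 1 in every scaling.

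Col19a1, a rare chain of basement membrane zones and of muscle in development, was at 1.64 and 2.95 FPKM, a ratio of 1.80 (1.39 to 2.33), the largest of the class after the floor. It did not reach 2-fold. Col20a1 was at 0.778 and 0.898 FPKM and Col22a1, a collagen of the muscle-tendon junction, at 0.0851 and 0.148 FPKM, and both intervals held 1. The type IX chains of cartilage were low, with Col9a2 at 0.483 and 0.445 FPKM, Col9a3 at 0.382 and 0.285 FPKM and Col9a1 at 0.0499 and 0.152 FPKM, a deposited ratio of 3.05 from few reads, and all 3 intervals held 1. Tendon markers had 2 of 5 genes called higher, Scx at 5.07 and 13.3 FPKM and Kera at 0.373 and 0.974 FPKM, with a median log2 ratio of 0.30, none at 0, and summed levels of 54.3 and 65.7 FPKM, and their part in the FACIT ratios was not tested.

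The multiplexins, collagens of vessel and epithelial basement membranes whose ends are cut off as endostatin-like fragments, had ratios close to 1. Col18a1, the source of endostatin, was at 75.9 and 72.9 FPKM, a ratio of 0.961 (0.925 to 0.998) that lay above 1 in none of the scalings and was 0.795 under fibroblast scaling. Col15a1 was at 37.9 and 38.2 FPKM, with a ratio of 1.01 (0.955 to 1.06) and 0.834 under fibroblast scaling.

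Among the short chain collagens, Col8a1, made by vessel wall cells and by fibroblasts in injury, was at 4.46 and 6.50 FPKM, a ratio of 1.45 (1.26 to 1.68). Col8a2, which can join it in 1 molecule, was at 0.227 and 0.0608 FPKM and was the only member called lower, with a ratio of 0.440 after the floor. The smallest read numbers behind its values are 13 and 4, the interval of the deposited ratio ran from 0.0636 to 0.867, and Col8a1 exceeded Col8a2 by 19.7 times in WT tissue and 65.0 times after the floor in PU.1-/- tissue. Col10a1, the collagen of hypertrophic cartilage, was at 0 and 0.0215 FPKM, no more than an estimated read.

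Of the remaining genes, Col26a1, of unsettled function, was at 3.46 and 5.70 FPKM, a ratio of 1.65 (1.32 to 2.06). Col28a1, a collagen around peripheral nerve, was at 3.06 and 4.35 FPKM, a ratio of 1.42 (1.17 to 1.73). Both stayed above 1 in each scaling, with 1.36 and 1.18 under fibroblast scaling. Schwann cell markers, whose cells are surrounded by Col28a1, had a median log2 ratio of 0.37, with 7 of 8 above 0, a range of -0.60 to 1.25, none at 0, and Cdh19 called higher, while their summed level was 108 and 124 FPKM. The part of nerve content in the Col28a1 ratio was not tested.

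The enzymes that turn new chains into collagen were close to level by their median in the deposited values. Of 35 genes for hydroxylation and folding, propeptide removal and crosslinking, none was called in either direction. Over all genes 4.34% were called lower and 2.32% higher, shares at which a list of this size would hold few calls. Their median log2 ratio was -0.02, with a range of -0.87 to 0.59. In the list for hydroxylation, glycosylation and folding, 14 of 19 genes were lower in the PU.1-/- library, with a median of -0.05. P4hb, a subunit of the prolyl hydroxylase, was at 483 and 428 FPKM, Ppib, a proline isomerase of the endoplasmic reticulum, at 266 and 239 FPKM, and Serpinh1, the collagen chaperone HSP47, at 225 and 217 FPKM.

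For propeptide removal the median was 0.00 over 10 genes, where genes below the floor in both libraries had a ratio of 1. The lowest log2 ratio was -0.87, that of Pcolce2 at 5.49 and 2.99 FPKM. Pcolce, an enhancer of the C-proteinase, was at 85.3 and 85.7 FPKM, and Bmp1, that proteinase, at 57.0 and 47.0 FPKM. Among 6 crosslinking genes the median was -0.09, with the lysyl oxidases Lox at 74.0 and 62.2 FPKM and Loxl1 at 59.9 and 51.7 FPKM, and the transglutaminase Tgm2 at 52.6 and 79.3 FPKM. Under fibroblast scaling the log2 ratios of the genes named here would be lower by 0.27, while genes at the floor in both libraries would keep a ratio of 1. With that shift Pcolce2 would pass the 2-fold rule and be called lower.

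Among the partners, receptors and breakdown genes of collagen, 1 gene was called in each list, and each was lower. Over all genes 4.34% were called lower and 2.32% higher. Of 11 fibril partners, Itgbl1, an integrin-like secreted protein, was called lower at 1.88 and 0.730 FPKM, while Sparc, a matricellular protein that binds collagen, was at 856 and 804 FPKM and Postn at 370 and 450.4 FPKM. Of 12 collagen receptors, Mrc1, the mannose receptor that macrophages use to take up collagen fragments and also a gene of the macrophage list, was called lower at 53.6 and 0.417 FPKM. Itgb1, the beta-1 integrin chain, was at 178 in both libraries, and the receptor kinase Ddr1 was at 33.9 and 40.2 FPKM. Of 11 genes of breakdown, Mmp8, the neutrophil collagenase and also a gene of the neutrophil list, was called lower at 23.1 and 0 FPKM, and Timp1, an inhibitor of these proteases, was at 436 and 261 FPKM. Mmp14 and Mmp2, proteases of fibroblasts, were at 123 and 158 FPKM and at 101 and 170 FPKM. Under fibroblast scaling Timp1, and Mmp9 at 34.5 and 19.3 FPKM, would also pass the 2-fold rule and be called lower.

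Among the signals that act on collagen synthesis, Il1b was called lower at 63.9 and 0.169 FPKM. Tgfb1, the best known inducer of type I collagen, was at 35.4 and 27.1 FPKM. The median log2 ratios of the lists were 0.00 for fibril partners, 0.00 for receptors and 0.08 for breakdown. Both medians of 0.00 are those of genes below the floor in both libraries, whose ratio was set to 1. In each of these lists 5 genes lay above 1 and 5 below. Beside these, myofibroblast markers, of the contractile cells that lay down collagen later in repair, had a median of 0.02 with none of 5 called, and Acta2 was at 68.1 and 61.9 FPKM.

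**Figure D4:**
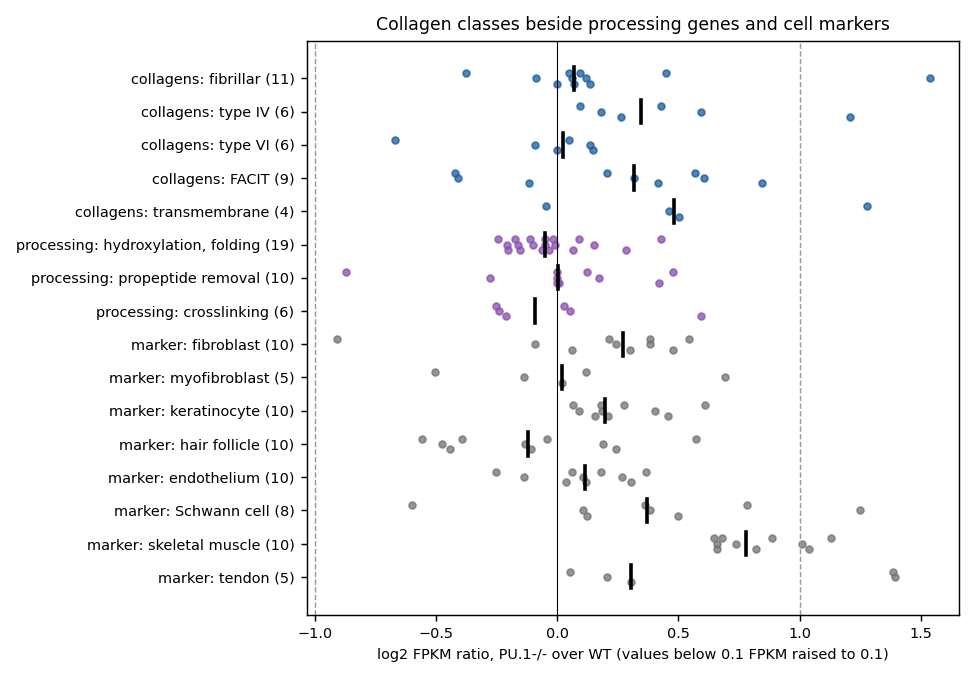
Log2 FPKM ratio of the PU.1-/- library over the WT library for the genes of 5 collagen classes (blue), 3 processing lists (purple) and 8 cell marker lists (grey), with list sizes in parentheses, medians as black ticks and 2-fold differences as dashed lines. The medians of the fibrillar and type VI classes, 0.07 and 0.02, lie below the fibroblast median of 0.27, type IV, FACIT and transmembrane medians are 0.34, 0.32 and 0.48, and the skeletal muscle median is 0.78; scaled to fibroblast markers, points clear of the floor of 0.1 FPKM would move to the left by 0.27 and points at the floor by less or not at all, and the fibrillar and type VI medians would lie below 0.

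By class, the median log2 ratio was 0.07 for fibrillar, 0.02 for type VI, -0.02 for multiplexin and 0.00 for short chain genes, and the first 3 lay below 0 under fibroblast scaling. The short chain median is that of Col10a1, which was below the floor in both libraries and so had a ratio of 1. It was 0.34 for type IV, 0.32 for FACIT and 0.48 for transmembrane genes, and it was 0.69 for Col7a1 alone and 0.61 for the pair of Col26a1 and Col28a1. Members below 10 FPKM in both libraries had a median of 0.34 over 26 genes and all 4 calls. Over all genes too, only 52 of 1057 lower calls and 33 of 565 higher calls fell on genes of at least 10 FPKM in both libraries.

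The sequence just upstream of the start sites was searched for 4 motifs in the RefSeq windows of 250 bases that were given for 35 member genes. TATAAA on the coding strand was found in 13.2% of their 38 windows and in 7.59% of all 32851 windows, with Col3a1, Col17a1 and Col13a1 among the holders. CCAAT on either strand was found in 34.2% and 33.8%, and GGGCGG on either strand in 57.9% and 32.7%. GAGGAAGT, a form of the site that PU.1 and related factors bind, was found on either strand in 0 member windows and in 2.44% of all windows. These are letter matches in short windows and say nothing of binding.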

How the data were processed

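Bulk mRNA of wound tissue was measured in 1 WT and 1 PU.1-/- library. The authors made libraries with a stranded kit, mapped the reads to mm10 and deposited FPKM values calculated, per the methods, with Cuffnorm. The submitters' processing notes name TopHat2 2.1.1, Bowtie2 2.2.8, SAMtools 0.1.18 and Cuffdiff 2.2.1. Which annotation and read filters were used is not stated there or in the methods. FPKM depends on the transcript lengths used and on the RNA of all other genes in the library, so a value is a share and not an amount per wound.

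Deposited FPKM values below 0.1 were raised to 0.1, ratios of PU.1-/- over WT were taken, and ratios of at least 2 in either direction were called. Equal read numbers gave a WT over PU.1-/- ratio of 1.15 in 455 low genes. The value of 1 read was taken from 1205 genes with small whole-read numbers and transcript lengths less 200 nt, using the longest GENCODE M21 transcript linked to RefSeq. Of these genes, 576 lay close to the commonest value and their median was used, while the others lay further away. Of 14 members with a smallest whole-read number, the estimate equalled it in 3 and lay within 2 reads in 6, and the true number can be a multiple of it. Where the authors used another transcript, reads and intervals shift. Intervals are exact binomial (Clopper-Pearson) at 95%. The calling rule and the intervals were run on simulated data, and no result of that run is given here. Their accuracy at the low read numbers of the called members was not tested. Coding features came from GENCODE M21 on GRCm38, the assembly of mm10, and gene bounds and upstream windows from RefSeq on GRCm38.p6. The members and lists were chosen with earlier results of these data known. All members could be named. Both values are given for those of at least 1 FPKM, and from each list the called genes and up to 3 of the highest WT level. Krt5, Krt15, Trp63, Itgb4, Pcolce2, Mmp9 and the low members were named outside this rule, after their values were seen. A member of the list of inducers of collagen synthesis, and the summary of that list, are not reported here. A planned reading of protein sequences was replaced by codons. Alternatives covered the floor, a pseudocount, filters, 3 scalings and the fold threshold. Scripts ran in Python 3.11.15 (pandas 2.3.3; numpy 2.4.6; scipy 1.17.1), with figures from matplotlib 3.10.9.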

Additional observations from a re-analysis of the deposited data

How the results depend on the processing

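No paired analysis was possible because each genotype had 1 library. The counts of called collagens depended on the treatment of low values. With the floor at 0.01 FPKM, 3 were called lower and 5 higher. With a floor of 1 FPKM, a pseudocount of 1 FPKM, only genes of at least 5 FPKM, or a 3-fold threshold, 0 were called lower and 0 higher. With a pseudocount of 0.1 FPKM, 1 was called lower and 2 higher, without Col4a3. With only genes of at least 1 FPKM, 0 were called lower and 1 higher (Col13a1), and at 1.5-fold 2 and 8. The median log2 ratio of the members was 0.0048 with the floor of 1 FPKM, 0.11 with the pseudocount of 1 FPKM, 0.18 with equal FPKM sums and -0.078 with equal fibroblast markers. The summed ratio was 1.12 with equal FPKM sums and 0.899 with equal fibroblast markers. The FACIT median was 0 with the floor of 1 FPKM, 0.094 with the pseudocount of 1 FPKM and 0.045 with equal fibroblast markers, under which the multiplexin and Col7a1 values were -0.30 and 0.42. That scaling shifted log2 ratios clear of the floor by -0.27 and moved 22 of 44 member ratios beyond their counting intervals, while equal FPKM sums shifted them by 0.05 and moved 9, and equal medians over genes of at least 10 FPKM moved 0. No called value changed direction, but these settings could not bring that about, since no scaling shifted a 2-fold ratio by more than 0.27. With the floor of 1 FPKM the log2 ratios of Col11a2, Col4a3 and Col8a2 fell to 0. Low read numbers limit the 16 members below 1 FPKM in both libraries, and the lack of replicates limits all.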
